A study of Mus musculus with 8 samples.

Results

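The genes of fatty acid oxidation, peroxisome assembly and ether lipid synthesis were followed in immortalized mouse embryonic fibroblasts (MEFs) without and with OPA1. They are 27 named genes and every gene whose name begins with Pex and a digit, 45 of the 49315 genes listed. They were counted by role as 17 genes of mitochondrial oxidation and 27 of peroxisomes (9 enzymes and carriers and 18 peroxin names), and Eci2 belongs to both organelles. Cpt1c was counted with the mitochondrial genes by its family, although its protein is known from the endoplasmic reticulum of neurons and has little transferase activity. The rule goes by role and name and uses no measured value, but members and lists were chosen with earlier results of these data known. All cells carried the Opa1-/- genotype. In 4 libraries the cells were Opa1-/- alone, and in the other 4 they were Opa1-/- with OPA1 put back, here called reconstituted. OPA1 is the dynamin-like GTPase that fuses mitochondrial inner membranes, and the study asked what its loss does to the transcriptome, with ferroptosis (iron-dependent death by lipid peroxidation) in its title. The cells grew in DMEM with fetal bovine serum and received no treatment. The labels name no promoter, vector or isoform for the returned OPA1, no clone and no wild-type MEFs. Nothing in them ties the libraries to separate cultures. The p-values therefore reflect only how far these libraries vary, which may be technical variation.

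Mitochondria and peroxisomes both shorten fatty acids by beta-oxidation, a cycle of dehydrogenation, hydration, a further dehydrogenation and thiolysis. Long chains enter mitochondria as carnitine esters, and there the electrons of the initial step reach the respiratory chain through the electron transfer flavoprotein. Peroxisomes take very long and branched chains, pass those electrons to oxygen as hydrogen peroxide, and also start the synthesis of ether lipids, the precursors of plasmalogens. Peroxins, the products of the Pex genes, build the organelle and import its enzymes.

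The files gave TPM (transcripts per 1000000), a level per transcript length that can be compared between genes. Steps in the TPM values gave a depth of 52.9 to 57.8 M reads per library (M, 1000000), and the tested members rested on 61 reads or more in each library. Values below are TPM scaled between libraries, in the order of libraries 1 to 4 of each group, and means are ± SD with n = 4. A difference is Opa1-/- minus reconstituted on the log2(scaled TPM + 1) scale, which understates the change of low genes. It was tested with limma-trend and Benjamini-Hochberg adjustment over 14272 genes and called at an adjusted p below 0.05. The Opa1 transcript stood at 14.8, 14.7, 13.7 and 12.5 TPM in Opa1-/- libraries and 15.6, 14.6, 14.5 and 14.5 TPM in reconstituted ones. Its difference of -0.09 (adjusted p = 0.306) does not check the labels. The fibroblast marker Vim was at 1412 ± 108 and 1368 ± 12.0 TPM. Of 8 tested fibroblast markers 1 was higher and 4 were lower, and the list summed to 2694 to 2977 TPM in Opa1-/- against 3126 to 3193 TPM in reconstituted libraries. Of 3 tested epithelial markers Cdh1 and Krt8 were higher, and the most abundant, Krt18, was at 170.01 ± 16.5 and 165 ± 29.4 TPM. That list summed to 176 to 213 TPM against 144 to 207 TPM. Leukocyte markers summed to 2.20 to 7.09 TPM against 3.52 to 5.66 TPM, nearly all from Cd68 (4.25 and 4.46 TPM). Endothelial markers, led by Kdr, and adipocyte markers, led by Adipoq, summed to less than 1 TPM in each library. Their part in the results below was not tested. In bulk RNA, fewer cells of a type and less RNA per cell cannot be told apart.

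Of the 43 members that passed the filter on low values, 22 were higher and 2 lower in Opa1-/- cells, and 19 were not called. Among all genes tested 16.3% were called higher and 16.8% lower, 33.0% in either direction. The members' median difference was 0.17, beside -0.00 over all genes. The values of both groups did not overlap for 20 members that were higher and 3 that were lower in Opa1-/- libraries, where 17.4% and 18.9% of all genes tested did so. At a reconstituted mean of 10 TPM or more, 19 of 34 members were higher and 2 lower, beside 15.5% and 22.8% of the 8464 genes at that level. Differences were small, between -0.28 for Pex5 and 0.44 for Acadm. The 2 untested members were Pex13-ps, a pseudogene listed at 0 in all libraries, and Pex5l, a Pex5-like gene of neurons listed at 0 in all but reconstituted library 2.

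**Figure D1:**
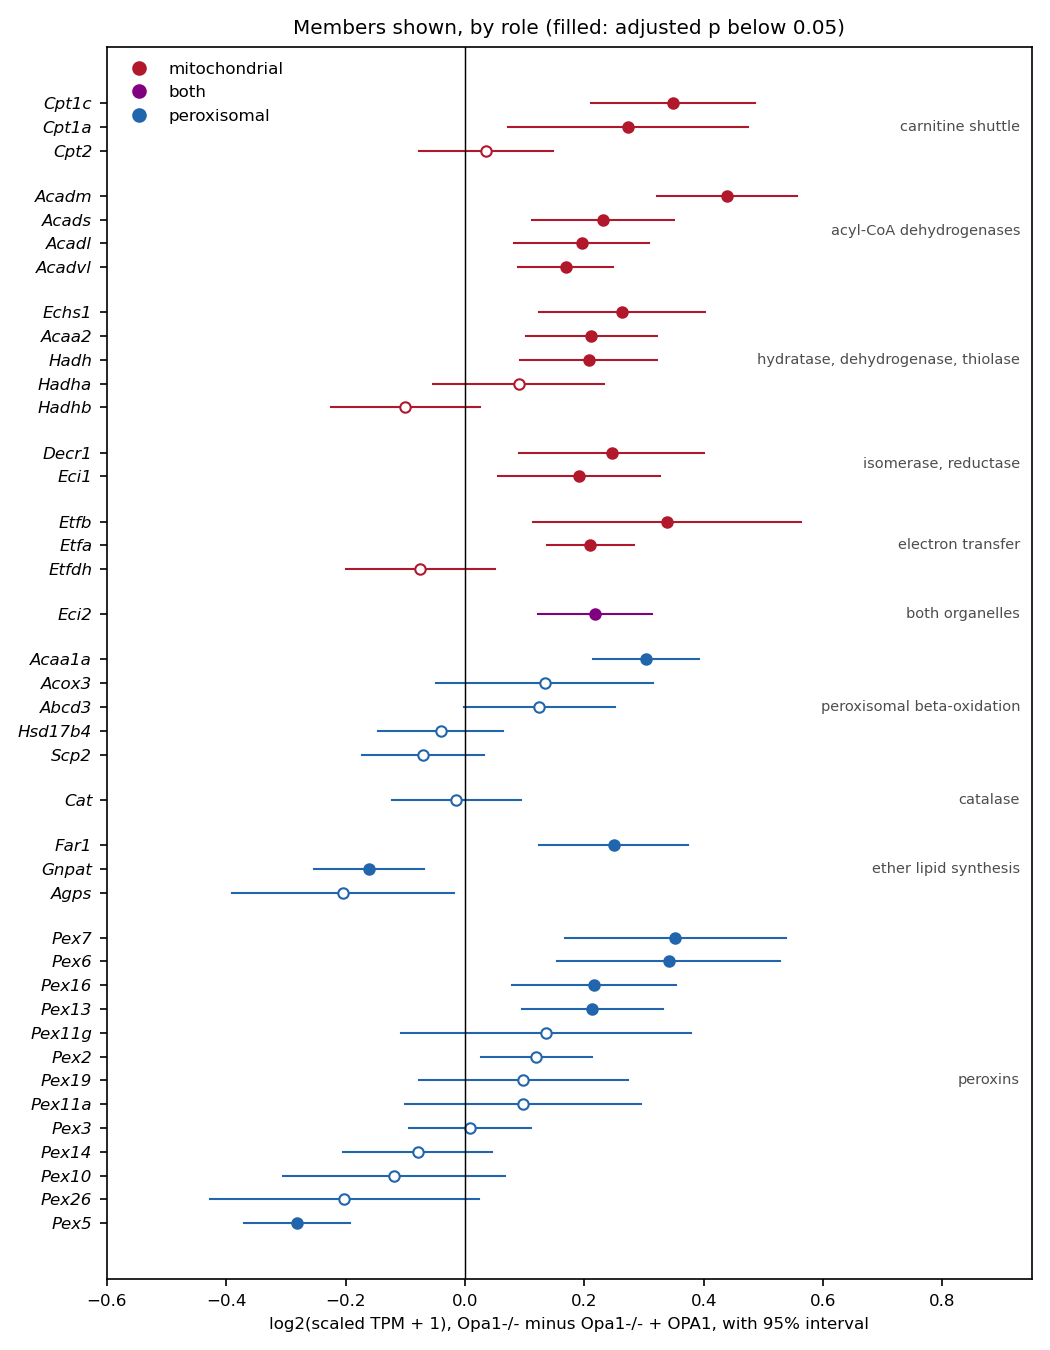
Difference of 40 of the 43 tested members between Opa1-/- and reconstituted libraries on the log2(scaled TPM + 1) scale (x axis), by gene and role (y axis), with 95% intervals. Filled points were called at an adjusted p below 0.05. Of 17 mitochondrial members 13 are filled to the right of 0 and none to the left. Of the 22 peroxisomal members shown 6 are filled to the right and 2, Gnpat and Pex5, to the left.

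The carnitine shuttle brings long chains into mitochondria, and the members Cpt1a and Cpt1c were higher in Opa1-/- cells. The third carnitine palmitoyltransferase 1 gene, Cpt1b of muscle, is no member and was too low to test, at 0.524 and 0.564 TPM. Cpt1a encodes the liver-type enzyme of the outer membrane, the regulated entry step. It stood at 39.5, 38.3, 36.0 and 29.4 TPM in Opa1-/- libraries and at 31.1, 30.6, 28.1 and 27.4 TPM in reconstituted ones. Opa1-/- library 4 lay among the reconstituted values and the other 3 above them. The difference was 0.27 (SE 0.09, adjusted p = 0.0422). This call was lost on leaving out any library other than Opa1-/- library 4, with adjusted p between 0.0557 and 0.109, and without Opa1-/- library 4 the difference was 0.36 (adjusted p = 0.00148). Cpt1c stood at 12.0, 11.8, 13.7 and 13.2 TPM against 10.3, 9.82, 9.44 and 9.39 TPM, a difference of 0.35 (SE 0.06, adjusted p = 0.00255). Its groups did not overlap. Cpt2, the inner membrane enzyme that hands the chain back to coenzyme A, was at 21.3 ± 0.625 and 20.8 ± 1.18 TPM, a difference of 0.04 (95% interval -0.08 to 0.15, adjusted p = 0.628).

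All 4 acyl-CoA dehydrogenases, which carry out the initial oxidation on chains of different length, were higher in Opa1-/- cells. In each of them every Opa1-/- library lay above every reconstituted library. Of all genes tested 16.3% were called higher, and 17.4% were higher without overlap. Acadm, the medium-chain enzyme (chr3:153922357-153944632, minus strand, GRCm38), had the largest difference of all members on the scale used. The low peroxin gene Pex7 changed more by the ratio of group means, at 1.40 against 1.37 for Acadm. By limma-voom on recovered reads their differences were 0.54 and 0.51. Its values were 34.4, 38.2, 38.5 and 37.9 TPM against 28.6, 27.5, 25.4 and 27.5 TPM, a difference of 0.44 (SE 0.05, adjusted p = 0.000351). Acads, the short-chain enzyme, stood at 44.7, 44.3, 40.8 and 40.9 TPM against 38.5, 37.2, 34.7 and 34.3 TPM (difference 0.23, adjusted p = 0.00922). Acadl, the long-chain enzyme, was the most abundant member in the reconstituted cells. It stood at 185, 188, 194 and 216 TPM against 168, 173, 171 and 168 TPM (difference 0.20, adjusted p = 0.0163), with Opa1-/- library 4 the highest. Acadvl, the very-long-chain enzyme of the inner membrane, had the smallest difference of the 4, 0.17 (adjusted p = 0.00620), at 53.2 ± 1.51 against 47.2 ± 0.644 TPM. Of the 2686 exon bases of Acadvl, 1151 overlap Dvl2 on the opposite strand, and no source used here states whether reads were counted by strand.

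In the middle of the cycle 3 of 5 members were higher, beside 16.3% of all genes tested. Echs1, the short-chain enoyl-CoA hydratase, was higher in Opa1-/- cells, at 17.3, 17.6, 16.8 and 15.8 TPM against 14.6, 14.9, 12.7 and 13.3 TPM (difference 0.26, adjusted p = 0.0106). Hadh, the medium- and short-chain 3-hydroxyacyl-CoA dehydrogenase, stood at 34.2 ± 0.923 against 29.5 ± 1.87 TPM (difference 0.21, adjusted p = 0.0130). Acaa2, the thiolase that ends the cycle, stood at 81.9, 83.7, 73.7 and 83.4 TPM against 68.4, 72.4, 69.2 and 67.8 TPM (difference 0.21, adjusted p = 0.00955). The groups did not overlap for any of these 3. Hadha and Hadhb encode the alpha and beta subunits of the trifunctional protein, which carries out the same steps on long chains at the inner membrane. Hadha was at 42.6, 41.5, 49.1 and 40.4 TPM in Opa1-/- and 38.8, 39.5, 42.0 and 42.2 TPM in reconstituted libraries, a difference of 0.09 (95% interval -0.05 to 0.23, adjusted p = 0.312). Hadhb was at 14.8, 14.7, 16.2 and 15.8 TPM and 15.9, 15.6, 17.2 and 17.6 TPM, a difference of -0.10 (95% interval -0.23 to 0.03, adjusted p = 0.204). Both groups overlapped for both subunits, and neither was called. Taken by library number, Hadhb was lower in Opa1-/- in all 4 pairs. With the replicate number as a block, Hadhb was called lower once chromosome medians were removed (-0.16, adjusted p = 0.0344), and Hadha higher once exon length and GC trends were removed (0.13, adjusted p = 0.0314). Of the 50-base words of Hadhb, 19.7% also occur in other genes, among them Gm13910, so its level is less certain.

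The start regions of 3 of these genes are shown because they cover the largest mitochondrial difference, the only match to 1 of the searched motifs, and the shared start of the uncalled pair. They are RefSeq sequence of GRCm38.p6, 5' to 3' on the gene's strand, limited to bases before the start that no annotated exon covers. Acadm is chr3:153944644-153944893 (minus strand), the 250 bases before its start. Echs1 is chr7:140116477-140116671 (minus strand), and its capitals mark a match to TGATGNAA, the element bound by ATF4 with C/EBP factors. Hadhb is chr5:30155163-30155247 (plus strand), the whole 85 bases between the starts of Hadha and Hadhb, which are transcribed away from each other.
Acadm: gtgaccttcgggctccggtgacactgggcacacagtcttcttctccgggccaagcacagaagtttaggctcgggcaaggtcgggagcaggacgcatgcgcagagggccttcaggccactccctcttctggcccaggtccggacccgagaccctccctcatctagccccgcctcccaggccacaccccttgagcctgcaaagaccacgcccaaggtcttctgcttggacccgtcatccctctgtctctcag
Echs1: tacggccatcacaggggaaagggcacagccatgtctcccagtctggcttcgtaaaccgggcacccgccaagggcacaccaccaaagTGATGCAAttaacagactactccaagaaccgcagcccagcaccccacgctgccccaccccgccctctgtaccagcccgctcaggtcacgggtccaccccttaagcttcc
Hadhb: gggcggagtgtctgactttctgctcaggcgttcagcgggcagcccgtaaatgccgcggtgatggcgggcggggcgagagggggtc

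Unsaturated chains need helper enzymes, and both mitochondrial ones were called higher in Opa1-/- cells, though their groups overlapped. Decr1, the 2,4-dienoyl-CoA reductase, stood at 18.0, 19.1, 21.4 and 19.6 TPM against 15.9, 15.1, 16.1 and 18.2 TPM (difference 0.25, adjusted p = 0.0228). Reconstituted library 4 was just above Opa1-/- library 1. The call was lost without Opa1-/- library 3 or reconstituted library 1, 2 or 3 (adjusted p 0.05004 to 0.0657). Eci1, the mitochondrial enoyl-CoA isomerase, stood at 139, 156, 136 and 159 TPM against 127, 137, 122 and 129.8 TPM (difference 0.19, adjusted p = 0.0370). It was lost without Opa1-/- library 2 or 4 or reconstituted library 1, 3 or 4 (adjusted p 0.0555 to 0.0987). Eci2, a related isomerase found in mitochondria and peroxisomes, stood at 48.0, 48.5, 45.8 and 47.4 TPM against 42.6, 41.7, 39.5 and 38.8 TPM. Its groups did not overlap, and its difference was 0.22 (SE 0.04, adjusted p = 0.00452). Its words are shared with Eci3 and others at 11.1%.

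Etfa and Etfb, the subunits of the electron transfer flavoprotein that collects electrons from the acyl-CoA dehydrogenases, were both higher in Opa1-/- cells. Etfa stood at 190.5, 197, 186 and 195 TPM against 164, 165, 168 and 166 TPM, a difference of 0.21 (SE 0.03, adjusted p = 0.00135). The gap between the groups was wide beside their spread. Etfb stood at 44.5, 43.0, 47.8 and 60.1 TPM against 38.1, 40.0, 34.7 and 39.7 TPM, a difference of 0.34 (SE 0.10, adjusted p = 0.0283), with Opa1-/- library 4 well above the rest. The Etfb call was lost without Opa1-/- library 3 or reconstituted library 1, 3 or 4 (adjusted p 0.0508 to 0.0785), and 678 of its 1164 exon bases overlap Gm45233 and Mir7051 on the same strand. Etfdh, the membrane oxidoreductase that passes the electrons on to ubiquinone, was at 19.2 ± 1.11 and 20.3 ± 0.976 TPM, a difference of -0.07 (95% interval -0.20 to 0.05, adjusted p = 0.336).

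Over all 17 mitochondrial members 13 were higher and none lower in Opa1-/- cells by limma-trend, beside 16.3% and 16.8% of all genes, and the median difference was 0.21. At an unadjusted p below 0.05 the count of lower members was 0, and limma-voom on recovered reads called 0. With chromosome medians removed and the replicate block it was 1, Hadhb. With TPM as deposited 8 mitochondrial members were higher, and without both libraries numbered 3 it was 6. The count over all genes fell as well, from 2322 higher to 1752 and 1559. The 4 mitochondrial members not called in the reported fit were Cpt2, Hadha, Hadhb and Etfdh. The list of other mitochondrial oxidation genes, chosen from textbook roles, had 13 of 14 genes tested, with 5 higher and 1 lower and a median of 0.19. Its higher genes include Slc25a20, the carnitine-acylcarnitine carrier between Cpt1 and Cpt2, at 17.8, 18.3, 16.2 and 17.9 TPM against 13.1, 13.5, 14.3 and 13.6 TPM (difference 0.34, adjusted p = 0.00122). Acad10, an acyl-CoA dehydrogenase family gene, was higher by 0.46 (adjusted p = 0.00403). Acot2, a matrix acyl-CoA thioesterase, stood at 7.66 ± 0.885 against 3.59 ± 0.354 TPM (difference 0.91, adjusted p = 0.000144), but 27.7% of its words are shared with Acot1 and other family members. The lower gene was Acot9, another mitochondrial thioesterase, on chromosome X, at 88.4, 90.9, 88.6 and 93.1 TPM against 134, 131, 142 and 135 TPM (difference -0.58, adjusted p = 2.03e-05). The most abundant gene of the list, Hsd17b10, also on chromosome X, was at 197 ± 12.8 and 195 ± 6.08 TPM (difference 0.01, adjusted p = 0.911).

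**Figure D2:**
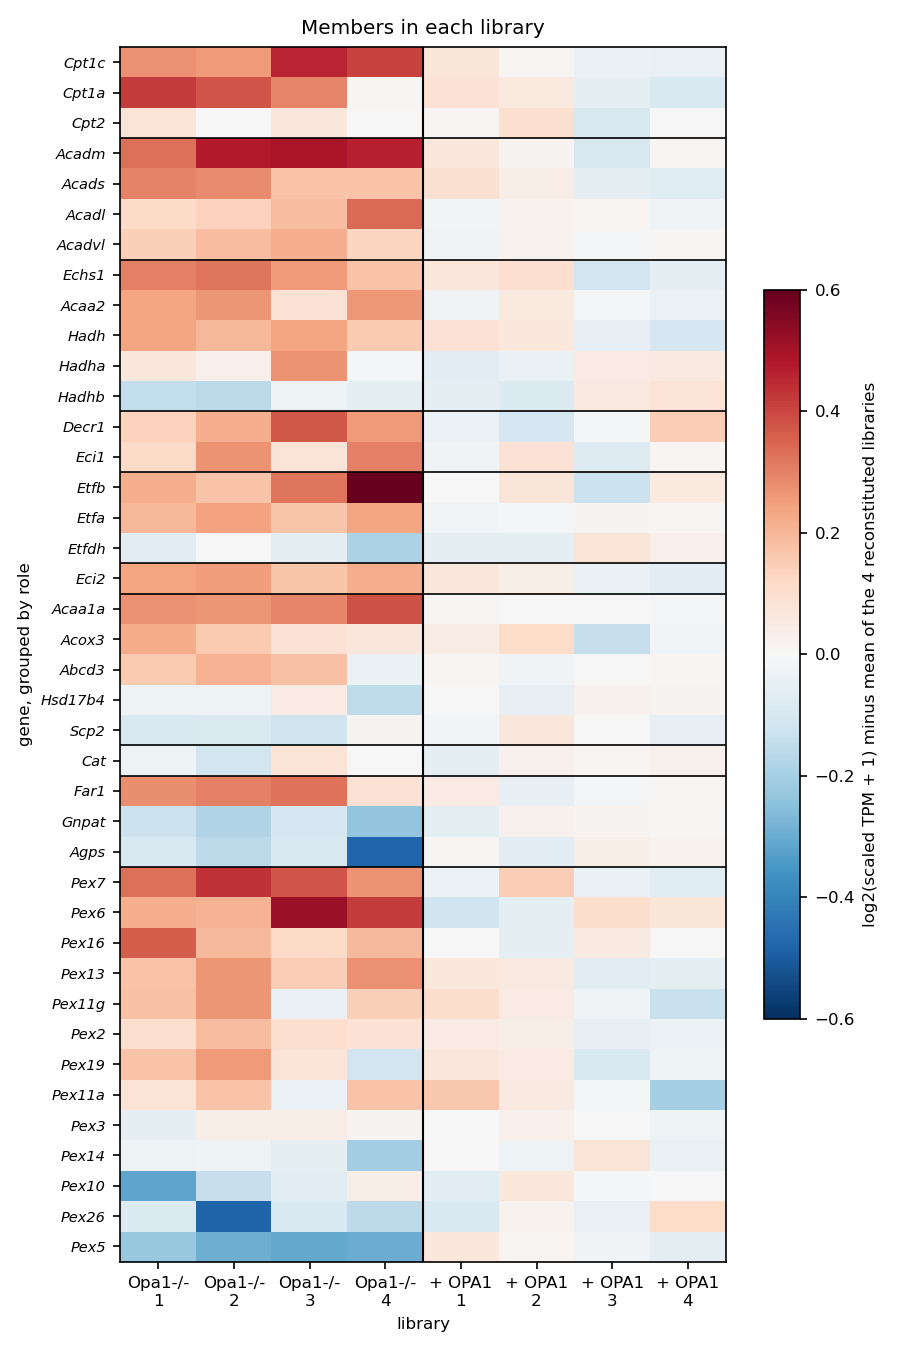
The same 40 members (rows, grouped by role) in each library (columns), as log2(scaled TPM + 1) minus the mean of the 4 reconstituted libraries. Red is higher and blue lower. Acadm, Etfa, Acaa1a and Pex7 are red in all 4 Opa1-/- libraries and Pex5 is blue in all 4. Opa1-/- library 4 differs from the other 3 for Cpt1a, Etfb and Agps.

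Peroxisomal beta-oxidation had 1 called gene among 5 members, where 33.0% of all genes tested were called in either direction. Acaa1a, the peroxisomal 3-ketoacyl-CoA thiolase (chr9:119339676-119350299, plus strand), was higher in Opa1-/- cells, at 34.2, 34.0, 34.7 and 36.9 TPM against 28.3, 28.2, 28.1 and 27.8 TPM. The reconstituted libraries were nearly equal and all Opa1-/- libraries lay above them, a difference of 0.30 (SE 0.04, adjusted p = 0.000552). Of its words, 17.1% are shared with other genes, chiefly its paralog Acaa1b, which was at 0.468 and 0.317 TPM. Abcd3, the membrane carrier that brings acyl-CoAs into the peroxisome, was at 36.2, 37.5, 36.6 and 31.4 TPM and 32.6, 31.8, 32.4 and 32.5 TPM. Library 4 lay below all reconstituted libraries and the other 3 Opa1-/- libraries above them. Its difference was 0.12 (adjusted p = 0.121), and 0.18 (adjusted p = 0.00191) without Opa1-/- library 4. Acox3, an oxidase of branched chains that makes hydrogen peroxide, was low, at 3.37 ± 0.217 and 2.99 ± 0.287 TPM (difference 0.13, adjusted p = 0.238). Hsd17b4, the multifunctional enzyme of the middle steps, was at 77.4 ± 4.42 and 79.5 ± 1.80 TPM (difference -0.04, 95% interval -0.15 to 0.06, adjusted p = 0.539). Scp2, which encodes the thiolase of branched chains, was at 34.1 ± 1.52 and 35.9 ± 1.31 TPM (difference -0.07, 95% interval -0.17 to 0.03, adjusted p = 0.268), and 29.7% of its words recur in copies such as Scp2-ps2. Catalase, Cat, which removes the hydrogen peroxide of the oxidases, was at 34.8, 32.9, 37.7 and 35.6 TPM and 34.1, 36.2, 35.8 and 36.2 TPM. The reconstituted range lies inside the Opa1-/- range, with a difference of -0.01 (95% interval -0.12 to 0.09, adjusted p = 0.843).

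Of the 3 ether lipid synthesis members 1 was called higher and 1 lower, beside 16.3% and 16.8% of all genes tested. Neither call stood with chromosome medians removed (Far1 0.14, adjusted p = 0.114, and Gnpat 0.03, adjusted p = 0.641) or with TPM as deposited (adjusted p = 0.0531 and 0.140). Far1, the fatty acyl-CoA reductase that supplies the fatty alcohol, was the most abundant peroxisomal member and higher in Opa1-/- cells, at 152, 154, 157 and 133 TPM against 129, 121, 124 and 126 TPM (difference 0.25, SE 0.06, adjusted p = 0.00828). Opa1-/- library 4 was the lowest of its group and still above all reconstituted libraries. Gnpat, the acyltransferase of the initial step (chr8:124863033-124890057, plus strand), was lower, at 61.3, 59.2, 62.5 and 56.8 TPM against 64.7, 68.4, 67.8 and 67.5 TPM (difference -0.16, SE 0.04, adjusted p = 0.0152). Without reconstituted library 3 its adjusted p was 0.0504. Agps, which swaps the acyl chain for the alcohol and so forms the ether bond, stood at 42.8, 40.9, 42.7 and 32.6 TPM and 45.8, 43.6, 46.9 and 46.4 TPM. Its groups did not overlap, but Opa1-/- library 4 lay far below the rest, and the difference of -0.20 (SE 0.08, adjusted p = 0.0880) was not called. Without that library the difference was -0.11 (adjusted p = 0.0381). Among the other ether lipid genes 10 of 11 were tested, with 1 higher and 3 lower and a median of -0.02. The higher gene was Tmem86a, a lysoplasmalogenase, at 4.56, 5.83, 5.34 and 5.57 TPM against 2.55, 2.74, 2.22 and 1.82 TPM (difference 0.93, adjusted p = 0.000306). Etnk1, the ethanolamine kinase and the most abundant of the list, was lower by limma-trend at 28.3 ± 1.57 against 33.2 ± 0.701 TPM (difference -0.23, adjusted p = 0.00618). Tmem164, an acyltransferase on chromosome X, stood at 21.3 ± 2.32 against 28.8 ± 0.547 TPM (difference -0.42, adjusted p = 0.00245). Tmem189, the desaturase that makes plasmalogens, stood at 19.3 ± 1.48 against 22.3 ± 1.06 TPM (difference -0.20, adjusted p = 0.0391). That call was lost without Opa1-/- library 2 or 3 or reconstituted library 1, 2 or 4 (adjusted p 0.0642 to 0.102), and its exons overlap Gm20431 and Cebpb. It was also lost with chromosome medians removed, upper-quartile scaling, no filter on low values or limma-voom, and without both libraries numbered 3. The Etnk1 call was lost with TPM as deposited.

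Of the 16 tested protein-coding peroxins 6 were higher and 1 lower in Opa1-/- cells, beside 16.3% and 16.8% of all genes tested. Their median difference was 0.13. The 2 cytosolic receptors that carry enzymes to the peroxisome went in opposite directions. Pex5, the receptor for the common C-terminal signal (chr6:124396816-124415067, minus strand), was lower in Opa1-/- cells, at 54.9, 52.4, 51.9 and 52.1 TPM against 67.3, 65.0, 63.5 and 61.8 TPM (difference -0.28, SE 0.04, adjusted p = 0.000802). It was the most abundant peroxin in the reconstituted cells, and its groups did not overlap. Pex7, the receptor for the N-terminal signal carried by the thiolase, Agps and Phyh, was higher, at 3.11, 3.42, 3.24 and 2.93 TPM against 2.19, 2.61, 2.18 and 2.10 TPM (difference 0.35, SE 0.08, adjusted p = 0.0101). Its groups did not overlap either, at a level far below that of Pex5.

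In the docking complex of the membrane Pex13 was higher, at 19.1 ± 0.885 against 16.3 ± 0.826 TPM (difference 0.21, adjusted p = 0.0131). Its partner Pex14 was at 15.1 ± 0.929 and 16.0 ± 0.634 TPM (difference -0.08, adjusted p = 0.308), with 1776 of its 6272 exon bases opposite Gm17029. Pex2, of the ubiquitin ligases that act on the receptor, stood at 48.0, 51.1, 48.0 and 47.5 TPM and 46.3, 45.8, 43.1 and 43.6 TPM, without overlap and just short of the threshold (difference 0.12, adjusted p = 0.0529). Without Opa1-/- library 4 its adjusted p was 0.0300. Pex10, another of the ligases, was at 5.20 ± 0.634 and 5.70 ± 0.242 TPM (difference -0.12, adjusted p = 0.305).

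Pex6 belongs to the ATPase that pulls the receptor back out of the membrane, and Pex26 anchors it. Pex6 was higher, at 29.4, 29.2, 36.4 and 34.0 TPM against 23.1, 24.1, 27.1 and 26.5 TPM (difference 0.34, adjusted p = 0.0123). In both groups libraries 3 and 4 were the higher pair. Pex26 was at 4.42 ± 0.666 and 5.21 ± 0.375 TPM (difference -0.20, adjusted p = 0.152). Of the factors that insert membrane proteins, Pex16 was higher at 14.0, 12.4, 11.7 and 12.4 TPM against 10.7, 10.2, 11.1 and 10.7 TPM (difference 0.22, adjusted p = 0.0240). That call was lost without reconstituted library 1, 2 or 4 (adjusted p 0.0561 to 0.0696). Pex3 was at 11.3 ± 0.396 and 11.2 ± 0.210 TPM (difference 0.01, 95% interval -0.09 to 0.11). Pex19, the chaperone of these proteins, was at 57.4, 61.1, 53.8 and 47.0 TPM and 53.3, 52.8, 47.8 and 49.99 TPM (difference 0.10, adjusted p = 0.371), or 0.17 (adjusted p = 0.0378) without Opa1-/- library 4. Of the genes for membrane growth and division, Pex11a was at 6.40 ± 0.489 and 5.94 ± 0.712 TPM (difference 0.10, adjusted p = 0.434). Pex11g was the lowest tested member, at 1.38 ± 0.206 and 1.16 ± 0.155 TPM (difference 0.14, adjusted p = 0.372). Of 3 tested division genes outside the peroxins, 1 was called, higher, where 16.3% of all genes tested were. It was Fis1, an anchor of the fission machinery shared with mitochondria, at 169 ± 14.2 against 139.99 ± 6.40 TPM (difference 0.27, adjusted p = 0.0105).

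The start regions of 3 called peroxisomal genes are shown for their repeated CCAAT boxes, printed in capitals as CCAAT or, on the other strand, ATTGG. The source and limits are those of the earlier set. Acaa1a is chr9:119341160-119341293 (plus strand), and a further box lies upstream of the stretch. Its RefSeq start lies inside the GENCODE span of the gene given earlier, so this stretch is not upstream of that whole span. Far1 is chr7:113513584-113513833 (plus strand), and Pex7 is chr10:19907690-19907924 (minus strand).
Acaa1a: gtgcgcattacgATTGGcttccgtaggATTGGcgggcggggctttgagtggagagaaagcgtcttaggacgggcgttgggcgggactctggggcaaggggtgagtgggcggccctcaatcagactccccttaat
Far1: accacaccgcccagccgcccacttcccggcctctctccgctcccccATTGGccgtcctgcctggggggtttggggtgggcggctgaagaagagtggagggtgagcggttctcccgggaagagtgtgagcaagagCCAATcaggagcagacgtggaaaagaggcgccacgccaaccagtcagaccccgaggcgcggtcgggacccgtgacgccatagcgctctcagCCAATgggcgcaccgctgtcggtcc
Pex7: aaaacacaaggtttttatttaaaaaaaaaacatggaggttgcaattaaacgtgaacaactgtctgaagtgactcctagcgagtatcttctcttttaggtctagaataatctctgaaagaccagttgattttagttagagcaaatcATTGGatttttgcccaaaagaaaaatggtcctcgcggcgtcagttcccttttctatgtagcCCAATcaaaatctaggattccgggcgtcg

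A RefSeq start region matched 35 of the 45 members, and motifs were searched on both strands in the 250 bases before the start. CCAAT was in 6 of 15 mitochondrial genes and 7 of 19 peroxisomal genes and in Eci2, beside 41.065% of the 9312 tested genes with such a region. Pex5, which was lower, and Cat, which was not called, hold it as well as Far1 and Pex7. Repeated boxes are not particular to the genes shown, since Cat, Etfa and Etfb hold them too. TGATGNAA was in Echs1 alone of the members (2.201% of tested genes), and CACGTG, the E-box, in Gnpat alone (10.202%). The palindromic core element of the nuclear respiratory factor NRF1 was in Etfdh alone (1.976%). Neither TCAAGGTCA, bound by estrogen-related receptors, nor the AGGTCA direct repeat with a 1-base spacer, bound by peroxisome proliferator-activated receptors (PPARs), was in these windows of any member, and 0.301% and 0.021% of tested genes held them. Both of these motifs hold the letters AGGTCA. The counts describe these letters in these windows.

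Of 31 other peroxisomal oxidation genes 23 were tested, with 10 higher and 1 lower, beside 16.3% and 16.8% of all genes tested. Their median was 0.11. The largest difference was in Phyh, the hydroxylase of branched phytanic acid, at 13.5, 14.2, 15.4 and 18.8 TPM against 8.15, 7.71, 9.31 and 7.67 TPM (difference 0.83, adjusted p = 0.000407). All Opa1-/- libraries were above all reconstituted ones, with library 4 highest. Ech1, a dienoyl-CoA isomerase of peroxisomes and mitochondria, was higher at 39.1, 38.8, 40.1 and 44.1 TPM against 27.3, 27.7, 27.2 and 24.2 TPM (difference 0.59, adjusted p = 0.000140). Tysnd1, the protease that trims imported oxidation enzymes, was higher at 38.2 ± 2.01 against 26.0 ± 1.15 TPM (difference 0.54, adjusted p = 0.000110). Abcd2, a carrier of very long chains, was higher at 2.22 ± 0.391 against 1.22 ± 0.163 TPM (difference 0.53, adjusted p = 0.00812). Prdx5, a peroxidase and the most abundant gene of the list, was higher at 163 ± 13.6 against 138 ± 6.75 TPM (difference 0.23, adjusted p = 0.0230), a call lost without Opa1-/- library 2 or reconstituted library 3 or 4 (adjusted p 0.0528 to 0.0639). The lower gene was Lonp2, the peroxisomal Lon protease, at 16.7, 17.1, 18.7 and 16.7 TPM against 23.1, 22.4, 22.4 and 23.2 TPM (difference -0.38, adjusted p = 0.000456). Lonp2 is named after its values were seen.

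Mitochondrial and peroxisomal members were then set side by side. The summed level of the 17 mitochondrial members was 993, 1021, 1000.8 and 1049.6 TPM in Opa1-/- libraries and 878, 898, 867 and 878 TPM in reconstituted ones, 15.4% higher and without overlap. That of the 27 peroxisomal members was 770.4, 773, 783 and 723 TPM against 739.97, 732, 733 and 731 TPM, 3.89% higher, with Opa1-/- library 4 below all reconstituted libraries and the other 3 above them. The ratio of both sums was 1.29, 1.32, 1.28 and 1.45 against 1.19, 1.23, 1.18 and 1.20, higher in each Opa1-/- library. It was highest in library 4, whose peroxisomal sum was the lowest. The sums are led by abundant genes such as Acadl, Etfa, Eci1 and Far1. The medians weight genes equally, and they were 0.21 for mitochondrial and 0.12 for peroxisomal members, 0.09 apart. Without peroxins the peroxisomal median was -0.01, with 2 higher and 1 lower of 9, beside 16.3% and 16.8% of all genes tested. In the lists outside the members, 10 of 23 tested peroxisomal oxidation genes were higher and 1 lower (median 0.11). Of 13 tested mitochondrial oxidation genes there, 5 were higher and 1 lower (median 0.19). In those lists the peroxisomal genes were not called higher less often, so the contrast in counts holds for the members only. Of all 25 tested peroxisomal members 8 were higher and 2 lower. With TPM as deposited these counts were 5 and 1, where 1752 of all 14272 genes tested were higher and 1529 lower. In single Opa1-/- libraries the median log2 difference from the reconstituted mean was 0.20, 0.22, 0.22 and 0.17 for mitochondrial and 0.16, 0.17, 0.08 and 0.07 for peroxisomal members. No p is given for these sums and medians, since members are not replicates.

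**Figure D3:**
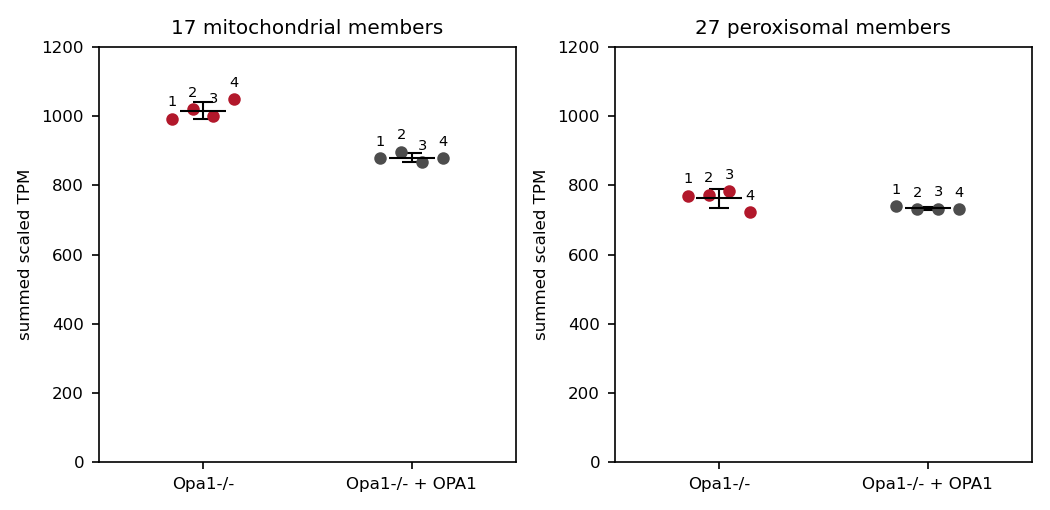
Summed scaled TPM (y axis, from 0) of the mitochondrial members (left) and peroxisomal members (right) in each numbered library, with bars at the mean ± SD of 4 libraries. The mitochondrial sums separate, at 1016 ± 25.3 against 880.2 ± 12.7 TPM. The peroxisomal sums overlap, at 762 ± 26.7 against 734 ± 4.13 TPM.

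PPARs and their co-activators switch on many genes of both pathways, and their own transcripts and textbook targets were counted as lists. Of 8 receptor and co-activator genes 7 were tested, with none higher and 1 lower by limma-trend, beside 16.3% and 16.8% of all genes. At an unadjusted p below 0.05 the count of higher genes was 0, and limma-voom on recovered reads called 0. The untested gene was the receptor Ppara, at 0.203, 0.274, 0.424 and 0.255 TPM in Opa1-/- and 0.0409, 0.154, 0.0969 and 0.126 TPM in reconstituted libraries, without overlap and below the filter. The lower gene was Pprc1, a co-activator and the most abundant of the list, at 69.5 ± 2.74 against 75.96 ± 2.55 TPM (difference -0.13, adjusted p = 0.0451). Its call was lost without Opa1-/- library 1, 2 or 4 or reconstituted library 1, 3 or 4 (adjusted p 0.0533 to 0.129). Of 12 textbook targets outside the oxidation lists 8 were tested, with 1 higher and 3 lower, beside 16.3% and 16.8% of all genes. Their median was -0.15. Targets among the members and the other oxidation genes are left out of this list, so it does not describe PPAR targets as a whole. The higher gene was Acot1, a cytosolic thioesterase, at 8.62 ± 1.02 against 3.77 ± 0.291 TPM (difference 1.01, adjusted p = 8.11e-05), with 19.2% of its words shared with its family. The lower genes were Angptl4, an inhibitor of lipoprotein lipase, Pdk4, which holds back pyruvate oxidation, and Plin2, a lipid droplet coat. Pdk4, the most abundant, stood at 233, 232, 302 and 297 TPM against 339, 314, 379 and 376 TPM (difference -0.41, adjusted p = 0.0160). Angptl4 stood at 4.95 ± 1.23 against 8.12 ± 1.19 TPM (difference -0.63, adjusted p = 0.0118). Plin2 stood at 82.5 ± 2.58 against 98.8 ± 0.769 TPM (difference -0.26, adjusted p = 0.000625).

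Some differences moved with the chromosome a gene lies on or with exon length and GC content. The median difference of well expressed genes was -0.18 on chromosome 8, -0.15 on chromosome 4, -0.36 on chromosome X, 0.10 on chromosome 9 and 0.11 on chromosome 7. With each library's chromosome medians removed, 20 members were higher and 1 lower, beside 2178 and 1605 of all 14272 genes tested. Gnpat, on chromosome 8, then had a difference of 0.03 (adjusted p = 0.641). The calls of Echs1 (0.15, adjusted p = 0.0979), Etfb (0.23, adjusted p = 0.119) and Far1 (0.14, adjusted p = 0.114), all on chromosome 7, and of Cpt1a (0.25, adjusted p = 0.0704) were lost. Those of Cpt2 (0.19, adjusted p = 0.0230) and Pex2 (0.15, adjusted p = 0.0219) were gained, and Decr1 on chromosome 4 stood at 0.40. With the replicate number as a block besides, 18 members were higher and 2 lower, beside 2183 and 1590 of all genes. Cpt1a was then called (adjusted p = 0.0230) and Cpt2 was not (adjusted p = 0.0503). Etfa, at 0.12 on chromosome 9 (adjusted p = 0.0511), and Pex13 (0.17, adjusted p = 0.0629) lost their calls only with the block. Tmem164 on chromosome X went to -0.08 (adjusted p = 0.466), Acot9 to -0.23 (adjusted p = 0.00174) and Hsd17b10 to 0.35 (adjusted p = 0.00121). With trends of exon length and GC removed, 19 members were higher and 2 lower, beside 2314 and 2688 of all genes. The calls of Acads (0.13), Eci1 (0.13), Pex6 (0.23) and Pex16 (0.11) were lost and that of Abcd3 (0.16, adjusted p = 0.0130) was gained. With the block besides, 22 members were higher and 2 lower, beside 2427 and 2729 of all genes. Acads (adjusted p = 0.0256), Eci1 (adjusted p = 0.0165) and Pex6 (adjusted p = 0.00556) were then called, and Acadvl (0.12, adjusted p = 0.0539) was not. The median exon length was 3879 bases for members and 3709.5 for all genes tested.

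**Figure D4:**
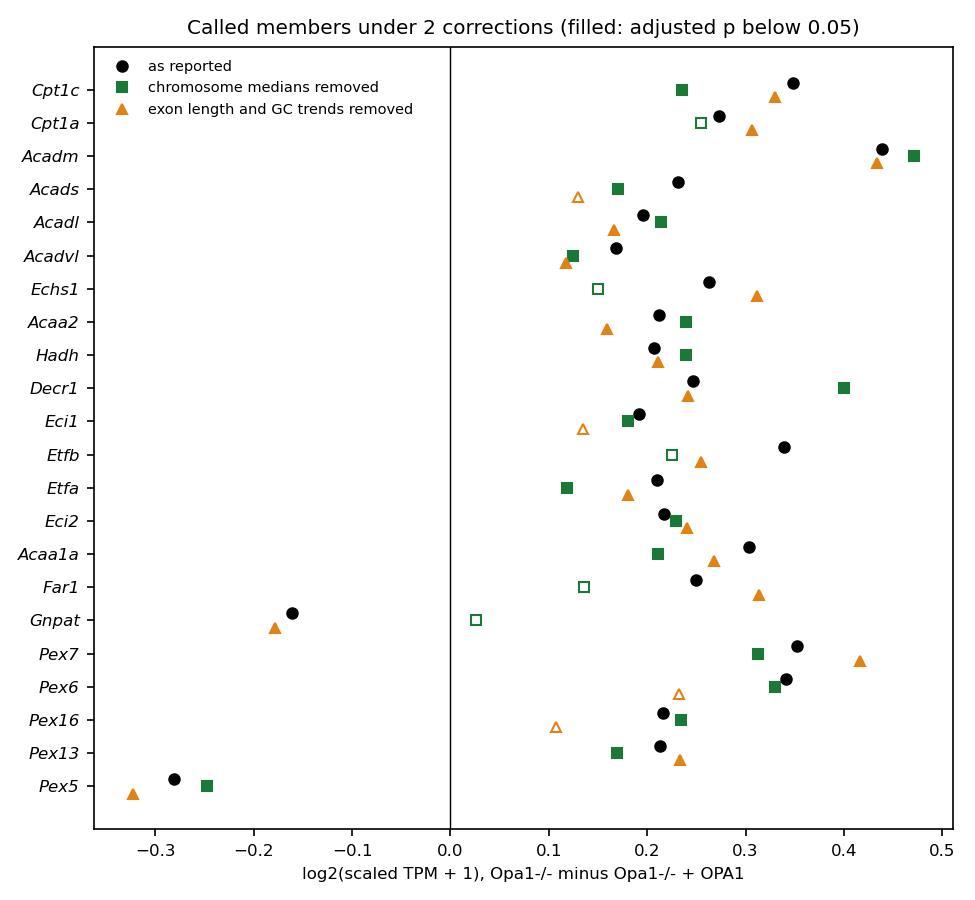
Difference of 22 of the 24 called members on the log2(scaled TPM + 1) scale (x axis) as reported (circles), with chromosome medians removed (squares) and with exon length and GC trends removed (triangles). Filled symbols have an adjusted p below 0.05. Gnpat crosses 0 when chromosome medians are removed, and the other members shown stay on their side.

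Under all 22 alternatives tried, 7 of the 24 called members held their call and direction. Among them were Acadm and Acaa2 of mitochondrial oxidation, Cpt1c, Eci2 of both organelles, Acaa1a of the peroxisome, and the receptor Pex5. With TPM as deposited, without scaling between libraries, 14 members were higher and 1 lower, beside 1752 and 1529 of all 14272 genes tested. Cpt1a, Acadl, Acadvl, Hadh, Decr1, Far1, Pex16 and Gnpat were among those then not called. Without both libraries numbered 3, 13 were higher and 2 lower, beside 1559 and 1695 of all 13721 genes tested there. Cpt1a, Acadl, Echs1, Hadh, Decr1, Eci1, Etfb, Far1 and Pex7 were then not called. Gnpat also missed the threshold with limma-voom on recovered reads (difference -0.11, adjusted p = 0.188).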

How the data were processed

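RNA sequencing libraries of immortalized MEFs, 4 labelled Opa1-/- and 4 labelled Opa1-/- with OPA1, were grouped by their titles. The authors deposited TPM values with gene identifiers and names, per the file headers, and each file sums to 1000000. The tools named per the submitters' processing notes are STAR 2.5.2b, Subread 1.5.2 with featureCounts, and bcl2fastq 2.17. Those notes name mm10 and GRCh38 without a role. How strand was treated in counting is not stated. Gene positions and exon lengths came from GENCODE M21 (GRCm38), which held 49056 of the 49315 identifiers, and start regions from RefSeq (GRCm38.p6).

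The tested genes were the 14272 with 1 TPM or more in 4 or more libraries. Over them, each library was scaled by an unweighted trimmed mean of log ratios, which dropped 30% of the ratios and 5% of the levels at each end. log2(scaled TPM + 1) was fitted with limma-trend (limma 3.58.1, R 4.3.3), two-sided, with Benjamini-Hochberg adjustment. Reads were recovered from TPM times exon length, where 95.0% to 95.5% of low values were whole within 0.05 of a read. The fit was tested on simulated data. Python 3.11.15 with pandas 2.3.3, numpy 2.4.6 and matplotlib 3.10.9 served for the other steps.

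The members and lists were chosen with earlier results of these data known. By the naming rule, named genes are all members, of each of 6 pathway lists up to 4 called genes with the largest difference and the most abundant gene, the most abundant gene of each marker list, and Opa1. Libraries with the same number deviated together from their group means (r = 0.246, 0.225, 0.317 and 0.119 for numbers 1 to 4, over 9416 genes). Libraries of different number gave r from -0.32 to 0.114, so number 4 hardly stands apart. Taking out the group means pushes these values down wherever same-number values are above 0, so they are no independent baseline. The numbers were taken to pair the libraries, although the labels do not say what they share. The fit without the block is the one reported. Alternatives were other scalings, pseudocounts and filters, limma-voom on recovered reads, the replicate block, removal of chromosome medians or of exon length and GC trends (natural splines with 4 degrees of freedom each), and libraries left out. Shared sequence was measured as 50-base words of a gene's transcripts found in another gene. Protein sequences were not used here. The values of some single members are not reported here, though counts, sums and medians include them.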

Additional observations from a re-analysis of the deposited data

Results flagged for a closer look

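Of 90 groups of 4 libraries checked over the tested members and the summed mitochondrial and peroxisomal levels, 4 held a library whose gap to its nearest neighbour, divided by the range of the group, passed Dixon's critical value for 4 values. Chance gives about 1 in 20 groups. Acadm was at 34.4 TPM in Opa1-/- library 1 and at 37.9 to 38.5 TPM in the other 3. That library was the lowest of its group and still above all reconstituted libraries. Pex5 was at 54.9 TPM in Opa1-/- library 1 and at 51.9 to 52.4 TPM in the other 3, below all reconstituted libraries in each case. Pex14 was at 13.7 TPM in Opa1-/- library 4 and at 15.4 to 15.6 TPM in the other 3. Pex2 was at 51.1 TPM in Opa1-/- library 2 and at 47.5 to 48.0 TPM in the other 3. All 4 lie in the Opa1-/- group.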

How the results depend on the processing

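In 22 alternatives, 945 values of single members were recomputed. Among them 62 lost a call with their sign unchanged, and 16 gained one. Of the called members Gnpat alone changed sign, at 0.026 with chromosome medians removed, with or without the replicate block. Its call was lost there too. Another 24 changes of sign fell on 8 members that were not called, Cat, Cpt2, Hsd17b4, Pex3, Pex10, Pex11a, Pex14 and Scp2. Beside 22 members higher, TPM as deposited gave 14 and leaving out both libraries numbered 3 gave 13. The count over all genes fell as well, from 2322 higher to 1752 and 1559. Leaving out 1 library gave 17 to 24. Beside 2 members lower, 1 was lower with chromosome medians removed, with deposited TPM and with limma-voom, and 1 to 3 on leaving out 1 library. The count fell to 1 without reconstituted library 3. The difference between the mitochondrial and peroxisomal medians, 0.09, stayed between 0.07 and 0.12 in all alternatives, the leave-one-out range included. Over all genes, 2322 were higher and 2392 lower. The lower count was 1590 with chromosome medians removed and the replicate block, and 1529 with deposited TPM. limma-voom gave 3227 higher and 1683 lower. Leaving out 1 library gave 1726 to 2572 higher and 1795 to 2731 lower. The replicate block alone gave 22 members higher and 2 lower (2362 and 2395 over all genes), and alone it changed no member's call. Scaling over all genes above 0, protein-coding genes only and chromosome medians with the block were chosen after seeing the data. Counting error is largest for Pex11g, which rested on 61 recovered reads in its lowest library.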
